A study of Mus musculus with 16 samples.

Results

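In libraries of sorted rods of the mouse retina, 89 genes of voltage-gated and transient receptor potential (TRP) ion channels averaged at least 1 CPM. CPM, a count scaled to a common library total, is here that of the authors' gene table. The genes were chosen by that mean level and by name, as protein-coding rows. Their symbols begin with Kcn, Cacn, Scn, Hcn, Clcn or Trp followed by a family letter a, c, m or v. The rule took 90 of 45594 rows, and 173 rows carry such a name at any level. Cacng7 was listed a second time on a patch sequence with identical values and was counted once. Because the mean over 16 libraries chose the genes, the level itself is a description here and not a result. Just inside the limit were Kcna6, Scn9a and Kcnn3 at 1.01, 1.13 and 1.2 CPM, and just outside were Kcne2 and Trpc6 at 0.996 and 0.932 CPM. Trpc4ap matched by name, but encodes a protein associated with a TRP channel and not a channel.

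Rods were sorted by green fluorescence from dissociated retinas. The strain is C57BL/6J (Nrlp-GFP), where GFP is driven by the Nrl promoter, active in rods. All 16 libraries carry this reporter, no other genotype or agent is labelled for them, and the groups differ in age only: 3, 12, 18 and 24 months, here called 3M, 12M, 18M and 24M, at 4 libraries per age. The labels do not state sex or whether a replicate was 1 mouse or a pool, so p-values measure the spread between these libraries. The cells are those in which the Nrl promoter was active and that survived dissociation, so cells lost before 24M were not measured.

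Rods hold a steady current in darkness and hyperpolarize in light, and their channels shape that signal. Voltage-gated potassium channels with the Kv8.2 subunit carry an outward current in the inner segment, HCN channels open on hyperpolarization, and the Cav1.4 calcium channel with its auxiliary subunits drives glutamate release at the ribbon synapse. CLC proteins move chloride across the plasma membrane or endosomal membranes, and TRP channels admit cations in many cell types. Inherited loss of Kv8.2, of Cav1.4 or of its auxiliary subunit from Cacna2d4 impairs vision in people and mice.

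Library totals ran from 20579144 to 28791777 estimated counts. The 12 rod markers, Nrl and Gnat1 among them, summed to 32300 to 48100 CPM over the 16 libraries. Their sums were 41600 to 46300 CPM at 3M and 32900 to 42900 CPM at 24M, and their median log2 changes against 3M were -0.162 at 12M, -0.299 at 18M and -0.253 at 24M, with 12, 11 and 11 of 12 below 0. No tested marker gene of rods or of the other cell types and cell classes was called in any comparison. Markers under the limit were not tested. These were 5 of 7 for the pigment epithelium, 4 of 6 for microglia and 3 of 5 each for OFF bipolar and horizontal cells. They were also 3 of 7 for endothelium and pericytes, 2 of 7 for ganglion cells and all 4 hemoglobin genes. Markers of Müller glia, the supporting glia of the retina, summed to 142 to 313 CPM in 15 libraries and to 504 CPM in 12M replicate 4. Their median log2 changes were 0.472, 0.338 and 0.417 at 12M, 18M and 24M, with 11 of 13 above 0 at each age. The part of either marker list in the channel results was not tested. Libraries also differed in how strongly counts leaned to long transcripts. This length slope, the change of log2 CPM per doubling of transcript length, averaged -0.029 ± 0.011 over the 3M libraries (SD, n = 4) and 0.023 ± 0.051, 0.003 ± 0.057 and 0.003 ± 0.061 at 12M, 18M and 24M. Its extremes were 24M replicate 3 at -0.081 and 18M replicate 3 at 0.084. Those libraries and 12M replicate 4, at -0.047, are absent from the authors' 13-library normalized table. Channel transcripts are long, with a median of 4409 bases against 2470 for all genes tested.

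A few genes made up much of the channel message. Per length, as TPM computed here (counts per annotated transcript length, scaled to a common total), Cacna2d4 averaged 215, Cacnb2 206, Kcnj14 137, Kcnv2 99.5 and Cacna1f 94.5. All annotated forms of a gene were summed, each divided by its own length, so short and noncoding forms add to these values. These 5 genes held 50.2% to 52.4% of the summed TPM of all 89 in the 3M libraries and 49.2% to 51.3% in the 24M libraries. By role, auxiliary calcium channel subunits averaged 29% of the sum and voltage-gated potassium pore subunits 25.8%. Inward rectifiers held 9.92%, TRP genes 8.56%, calcium channel pores 6.99% and CLC genes 6.22%. The remaining classes were each under 5%. Only 15 of the 89 genes averaged at least 10 TPM, and 41 were under 1 TPM.

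With age, none of these 5 leading channel genes changed beyond the spread of the libraries, while 4 channel genes of lower level were higher at 24M than at 3M. These were Cacna2d2 (2.08-fold), Kcnh6 (2.45-fold), Hcn2 (1.63-fold) and Cacna1s (1.59-fold), and no channel gene was lower. The test was edgeR's quasi-likelihood fit over 16939 genes with Benjamini-Hochberg adjustment, and a gene is called where its adjusted p is under 0.05. The 4 calls are 4.49% of the 89 channel genes, against 3.7% of all genes tested (2.17% higher and 1.53% lower), so the share is near the background. The median log2 change at 24M was 0.118 for channel genes and 0.006 for all genes, and 61 of 89 channel genes lay above 0 (68.5%, against 51.2%). That channel median was 0.025 without 24M replicate 2, 0.065 without either of 3M replicates 2 and 4, 0.073 with the length slope as a covariate, and 0.065 and 0.061 on the authors' gene CPM with pseudocounts of 0.5 and 2. Without 3M replicate 1 it was 0.176. At 18M a single channel gene, Cacna2d2, was called, and it was higher, beside 1.36% of all genes called higher and 1.01% lower (2.37% in all). At 12M the call was again Cacna2d2 alone, beside 0.738% of all genes called higher and 0.337% lower (1.07% in all). It was also the only channel gene called for any difference among the ages, where 2.5% of all genes were called. Unadjusted p-values under 0.05 were seen for 6 channel genes at 12M (6.74%, against 9.21% of all genes), 14 at 18M (15.7%, against 12.4%) and 11 at 24M (12.4%, against 13.2%), near the background at each age. All 3 comparisons share the 3M libraries. In sorted bulk samples, fewer cells of a type and less RNA per cell cannot be told apart.

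**Figure D1:**
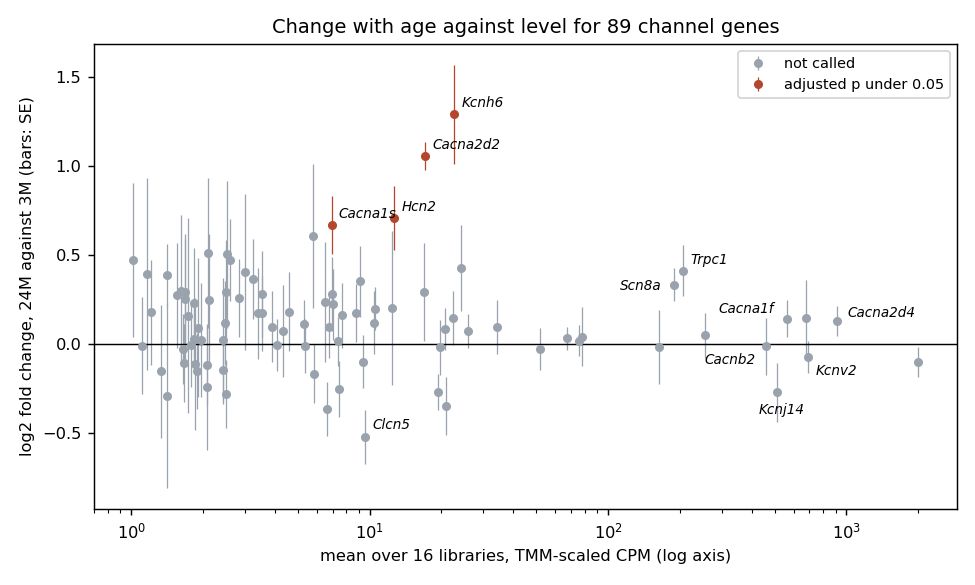
Log2 fold change at 24M against 3M (vertical axis, bars are the standard error of the fit) against the mean TMM-scaled CPM over 16 libraries (horizontal log axis) for the 89 channel genes. The 4 called genes, in red, have means of 6.93 to 22.7 CPM, and Cacna2d4, Kcnv2, Cacna1f, Kcnj14 and Cacnb2 lie between -0.273 and 0.14.

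Among potassium channel pore genes, Kcnv2 (GRCm38 chr19:27322588-27337179, plus strand) encodes Kv8.2, a modifier subunit that is silent alone and forms channels with other subunits of the inner segment. Scaled with the trimmed mean of M-values (TMM), Kcnv2 read 741, 754, 662 and 674 CPM at 3M and 709, 672, 633 and 675 CPM at 24M, with overlapping groups and a log2 change of -0.07 ± 0.092 (SE, adjusted p = 0.828). At 12M it read 797, 623, 685 and 669 CPM and at 18M 677, 728, 623 and 729 CPM, so that each age overlapped the others.

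**Figure D2:**
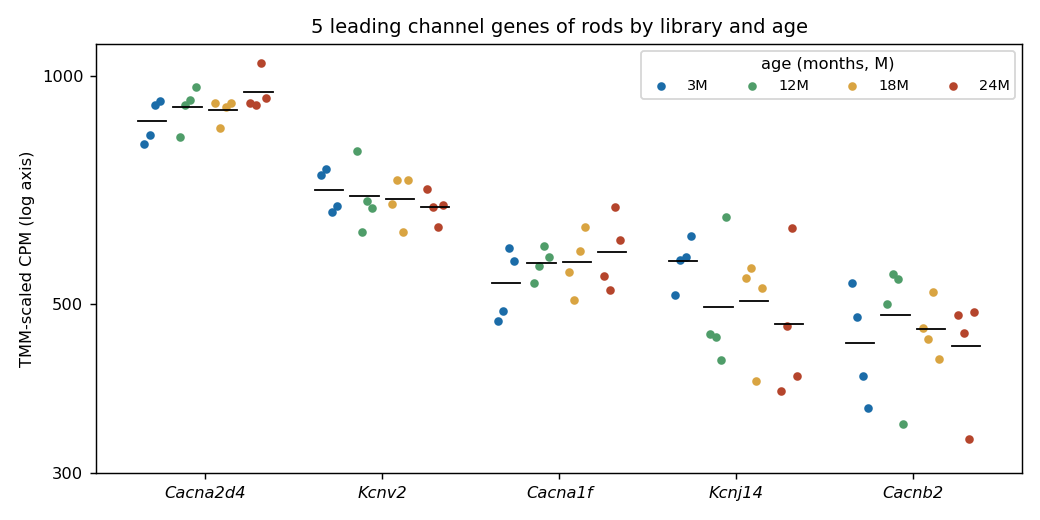
TMM-scaled CPM (vertical log axis) of 5 leading channel genes in each of the 16 libraries, colored by age, with a bar at the mean of each age. For each gene the libraries of every later age overlap those of 3M, and Cacnb2 had single low libraries at 12M and 24M, at 348 and 332 CPM.

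Kcnh6 was the potassium pore gene called with age (chr11:106008124-106034549, plus strand). It encodes Kv11.2, a channel of the ether-a-go-go related family that opens slowly and carries current during repolarization. At 3M its libraries read 10.3, 15.4, 18 and 7.46 CPM. At 12M they read 22.5, 27.6, 24 and 22.2 CPM, all above the 3M libraries. At 18M they read 21.2, 27.8, 13.9 and 26.8 CPM, and at 24M 17.5, 36.1, 37.1 and 34.6 CPM. At 24M, replicate 1 lay within the 3M range and the other 3 libraries were above it. The mean went from 12.8 ± 4.78 to 31.3 ± 9.3 CPM (SD, n = 4 each), a log2 change of 1.29 ± 0.278 (adjusted p = 0.012). The changes at 12M (0.91, adjusted p = 0.185) and 18M (0.81, adjusted p = 0.195) were not called. Without 3M replicate 1 the 24M adjusted p was 0.051. Kcnh6-201, the annotated coding form, held 52.8% of the gene's counts, and a form annotated for nonsense-mediated decay, Kcnh6-204, held 34.6%. Both forms were higher at 24M: 7.38 ± 2.61 against 15.6 ± 4.25 CPM for the coding form and 3.87 ± 2.26 against 12.1 ± 4.1 CPM for the decay form, given here as values without a test.

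The other potassium pore genes were not called at any age. Kcnh7, a close relative of Kcnh6, read 14.5 to 23 CPM at 3M and 16.5 to 29.5 CPM at 24M (log2 change 0.42 ± 0.242, adjusted p = 0.501). Kcnb2, a delayed rectifier gene, averaged 4.32 CPM and 0.228 TPM. Kcnh2, which encodes the cardiac repolarizing channel hERG, averaged 2.08 CPM. For the class of 18, the median log2 change at 24M was 0.159 and 14 lay above 0.

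No auxiliary or other potassium channel gene was called. Kcnab2, a cytoplasmic beta subunit of Kv1 channels, led the auxiliary class with 55.9 TPM and read 62 to 93.4 CPM at 3M and 62.2 to 104 CPM at 24M. Among channels gated by calcium or sodium, Kcnn2 (a small-conductance channel) averaged 10.4 CPM and Kcnma1 (the large-conductance BK channel) 6.49 CPM. None of these 9 and 5 genes was called at any age. The inward rectifier class was almost all Kcnj14, which encodes Kir2.4. Kcnj14 read 514, 572, 578 and 616 CPM at 3M and 384, 469, 630 and 403 CPM at 24M. Thus 3 of the 4 24M libraries lay below every 3M library and 24M replicate 3 above them, and the log2 change of -0.27 ± 0.166 was not called (adjusted p = 0.543). Kcnj10, the Kir4.1 channel of Müller glia, and Kcnj13, the Kir7.1 channel of the pigment epithelium, averaged only 5.82 and 4.61 CPM. Of the 3 genes of the 2-pore-domain class, Kcnk6 led, with 22.3 CPM and a log2 change of 0.14 at 24M (adjusted p = 0.787).

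No calcium channel gene of the rod synapse passed the test. Cacna1f (chrX:7607083-7635196, plus strand) encodes Cav1.4, the pore of the presynaptic calcium current. It read 476, 490, 594 and 571 CPM at 3M and 545, 523, 671 and 607 CPM at 24M, a log2 change of 0.14 ± 0.104 (adjusted p = 0.656). Cacna2d4 (chr6:119236526-119352407, plus strand), the extracellular alpha2delta-4 subunit of that channel, read 812, 835, 915 and 925 CPM at 3M. At 24M it read 922, 916, 1040 and 935 CPM, higher than any 3M library in replicates 3 and 4 and otherwise near the top of the 3M range (log2 change 0.13 ± 0.082, adjusted p = 0.577). Cacnb2 (chr2:14603088-14987908, plus strand), the cytoplasmic beta2 subunit, read 533, 481, 402 and 365 CPM at 3M and 484, 459, 332 and 489 CPM at 24M. Its spread within an age was wide, and its log2 change was -0.01 ± 0.159 (adjusted p = 0.986). In TPM, Cacna2d4 stood at 2.31 ± 0.136 times Cacna1f at 3M and 2.22 ± 0.19 times at 24M (SD, n = 4 each, exact two-sided permutation p = 0.457). Cacnb2 stood at 2.26 ± 0.57 times Cacna1f at 3M and 2.02 ± 0.519 times at 24M (exact permutation p = 0.6). Both differences were smaller than the spread, the adjusted p was 0.6 for each of the 2 ratios, and 4 against 4 libraries allow no p below 0.0286. As TPM sums all annotated forms, these are not ratios of full-length message or of protein. The 430-base form Cacnb2-212, with 8.25% of that gene's counts, weighs more in TPM than in CPM. In CPM, Cacnb2 averaged 459 and Cacna1f 564.

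The clearest change among all channel genes was in Cacna2d2 (ENSMUSG00000010066, chr9:107399612-107529343, plus strand), which encodes alpha2delta-2, an auxiliary subunit that raises the surface density of calcium channels and is known from cerebellar neurons. It read 11, 11.6, 11.1 and 11.2 CPM at 3M. At 12M it read 16.9, 15.3, 16.6 and 17 CPM, and at 18M 18.8, 15.2, 17.5 and 17.5 CPM. The 24M libraries read 24.1, 23, 23.7 and 22.5 CPM. Every library of a later age was above every 3M library, and the 24M libraries were above all others, while 12M and 18M overlapped. Against 3M the log2 change was 0.55 ± 0.079 at 12M (adjusted p = 0.0011), 0.62 ± 0.079 at 18M (adjusted p = 0.000171) and 1.06 ± 0.079 at 24M (adjusted p = 4.15e-07). Steps between later ages were not tested. Its level remained small beside that of its rod relative, at 4.6 TPM at 24M against 230 TPM for Cacna2d4.

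Cacna2d2 was called in each comparison under every alternative analysis run, including each library left out in turn, and its log2 change at 24M ran from 1.04 to 1.21. In the authors' deposited table its log2 difference at 24M was 1.25 (adjusted p = 6.2e-06, over all ages). Several coding transcripts shared the counts: Cacna2d2-204 went from 1.19 ± 0.636 CPM at 3M to 5.98 ± 1.42 CPM at 24M, and Cacna2d2-202 from 3.79 ± 0.15 to 5.13 ± 2.65 CPM, as values without a test. Cacna2d2-210, a retained-intron form with 7.63% of the counts, went from 0.741 ± 0.0614 to 1.91 ± 0.149 CPM. A gene on the opposite strand, Gm17141, overlaps 6711 bases of Cacna2d2 and averaged 1.32 CPM. The sources used here do not state whether counting used strand, so reads of the pair may not be separable.

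**Figure D3:**
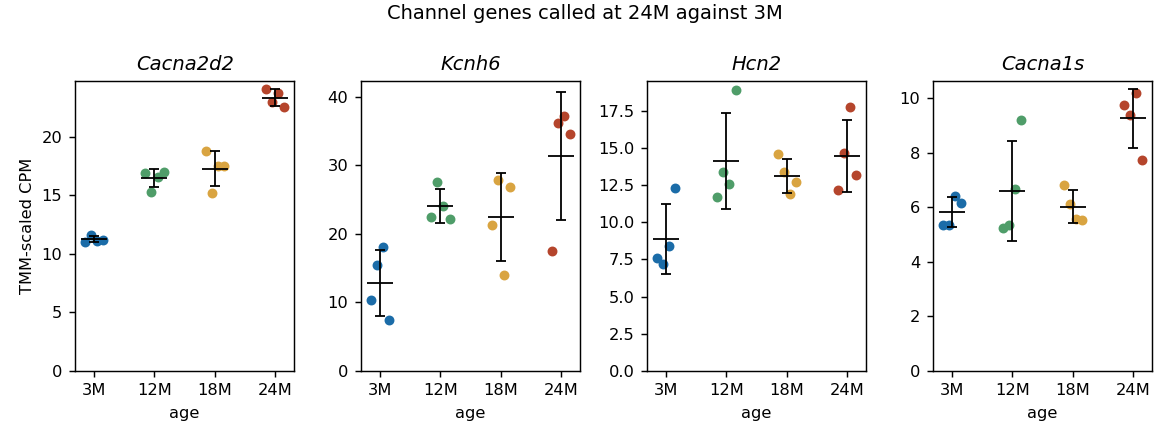
TMM-scaled CPM in each library by age for the 4 channel genes called at 24M against 3M, with the mean and SD of each age, on axes that start at 0. Cacna2d2 stepped from about 11.2 CPM at 3M to 23.3 CPM at 24M with little spread, whereas Kcnh6 and Hcn2 had overlapping libraries.

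Cacna1s (chr1:136052750-136119822, plus strand) encodes Cav1.1, the L-type pore known as the voltage sensor of skeletal muscle. Its libraries read 5.34, 5.36, 6.42 and 6.17 CPM at 3M and 9.77, 9.4, 10.2 and 7.72 CPM at 24M, without overlap. The 12M and 18M means, 6.61 ± 1.83 and 6.02 ± 0.604 CPM, lay beside that of 3M, 5.82 ± 0.556 CPM. The log2 change at 24M was 0.67 ± 0.163 (adjusted p = 0.0279), while those at 12M and 18M were 0.18 and 0.05. Counts were low, with 117 in the smallest library. The call was lost in the analyses of the authors' gene CPM (adjusted p = 0.074 and 0.069 with pseudocounts of 0.5 and 2). It was also lost without any of 3M replicates 1, 2 and 4 and 24M replicates 1, 2 and 3.

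The higher count of Cacna1s at 24M was assigned to a transcript that begins inside the gene. Cacna1s-206 starts at chr1:136073554, downstream of the first exon of the full-length forms, is annotated as coding and held 58.9% of the gene's counts. It read 2.88 ± 0.372 CPM at 3M (2.32 to 3.08) and 6.87 ± 0.994 CPM at 24M (5.82 to 7.84). The full-length Cacna1s-201 read 1.48 ± 1.33 and 0.706 ± 0.622 CPM. These are the authors' estimates for forms that share most of their exons, and they were not tested. Gm37759, a gene on the other strand at 7.45 CPM, overlaps 3246 bases of Cacna1s, and its part in the counts was not tested. The remaining calcium pore genes averaged under 20 CPM and were not called at any age, among them Cacna1d (Cav1.3, 3.53 CPM) and Cacna1c (Cav1.2, 3.55 CPM). Across the 10 pore genes the median log2 change at 24M was 0.226.

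Among HCN genes, whose channels open on hyperpolarization, Hcn2 was called at 24M. Hcn2 (chr10:79716634-79736108, plus strand), a slower subunit known from heart and thalamus, read 7.57, 7.17, 8.43 and 12.3 CPM at 3M. It read 11.7, 13.4, 12.6 and 18.9 CPM at 12M, 14.6, 13.4, 11.9 and 12.7 CPM at 18M, and 12.2, 14.7, 17.8 and 13.2 CPM at 24M. Most later libraries lay above every 3M library, and the groups overlapped through 3M replicate 4 alone.

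The log2 change of Hcn2 at 24M was 0.71 ± 0.181 (adjusted p = 0.038), and those at 12M (0.67, adjusted p = 0.115) and 18M (0.57, adjusted p = 0.148) were of like size and not called. The 24M call was lost with a pseudocount of 2 on the authors' gene CPM (adjusted p = 0.051) and without any of 10 of the 16 libraries, where the adjusted p reached 0.14. With the length slope of each library as a covariate, the adjusted p of Hcn2 was 0.003 at 12M, 0.0058 at 18M and 0.00079 at 24M. Per length, Hcn2 stood at 1.83 TPM at 3M and 3.41 TPM at 24M.

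The upstream sequences of Kcnh6, Hcn2 and Cacna1s are shown because these genes were called at the same age, beside that of the Cav1.4 gene, which was not called. That of Cacna2d2, the other called gene, is not shown because its RefSeq window (chr9:107399630-107399879) lies wholly within an annotated first exon. The sequences come from RefSeq on GRCm38.p6, plus strand, 5′ to 3′. Those of Kcnh6, Hcn2 and Cacna1f end before the first annotated exon, and 25 of the 30 bases of Cacna1s lie within the first exon of Cacna1s-204. The Cacna1s window is thus not at the start of Cacna1s-206 (chr1:136073554), the form to which the higher 24M count was assigned. Capitals mark TCAGCA, which is TGCTGA read on the other strand, in Kcnh6, and TAATCC in Cacna1s. Kcnh6 lies at chr11:106007898-106008123, Hcn2 at chr10:79716384-79716633, Cacna1f at chrX:7606853-7607082 and the Cacna1s piece at chr1:136052745-136052774.
Kcnh6: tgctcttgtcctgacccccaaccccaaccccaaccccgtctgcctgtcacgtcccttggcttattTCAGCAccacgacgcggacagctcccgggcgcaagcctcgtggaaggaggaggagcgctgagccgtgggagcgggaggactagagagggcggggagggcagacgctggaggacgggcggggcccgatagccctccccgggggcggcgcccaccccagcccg
Hcn2: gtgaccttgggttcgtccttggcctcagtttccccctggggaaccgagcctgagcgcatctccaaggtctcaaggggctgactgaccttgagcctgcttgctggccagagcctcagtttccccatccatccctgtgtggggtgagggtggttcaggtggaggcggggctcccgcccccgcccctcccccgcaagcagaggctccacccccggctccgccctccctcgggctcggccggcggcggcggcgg
Cacna1f: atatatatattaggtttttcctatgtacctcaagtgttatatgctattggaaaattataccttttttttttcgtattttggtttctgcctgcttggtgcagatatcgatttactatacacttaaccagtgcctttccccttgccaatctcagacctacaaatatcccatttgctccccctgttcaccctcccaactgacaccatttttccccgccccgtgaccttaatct
Cacna1s: gagcagagagagTAATCCtcccgcccccac

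The windows differed in base composition more than in these motifs. In the 250 bases before the RefSeq start, Kcnh6 held 21 CpG dinucleotides and Hcn2 16, with 70.8% and 70.4% of G and C, while Cacna1f held 4 with 41.6%. Cacna2d2 held 34 with 74.4%, Cacna1s 9 with 62.4%, and the median over all promoters was 6 CpG. TAATCC is the core bound by homeodomain factors such as CRX and TGCTGA part of the site of NRL, and both strands were searched. Neither was found in the windows of Cacna2d2, Hcn2 and Cacna1f. In Kcnh6, TGCTGA stood 185 and 20 bases before the start, and in Cacna1s TAATCC stood 54 and TGCTGA 16 bases before it. Of 66 channel genes with a RefSeq promoter, 4 held TAATCC (6.06%) and 13 held TGCTGA (19.7%), against 7.21% and 18% of 27025 genes with one. Counted by promoter, the shares were 6.25% and 16.1% of 32851. A match describes letters only.

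Sodium channel genes were led by Scn8a (chr15:100869858-101045938, plus strand), which encodes the widespread neuronal channel Nav1.6 and averaged 52.4 TPM. It read 159, 159, 164 and 165 CPM at 3M and 226, 204, 177 and 208 CPM at 24M. The libraries did not overlap at 24M or at 18M, where they read 185 to 213 CPM, yet the adjusted p at 24M was 0.0616 (log2 change 0.33 ± 0.093). It was called with DESeq2 (adjusted p = 0.0072), with the length slope as a covariate (0.0094) and without 24M replicate 3 (0.017) or 12M replicate 4 (0.019). It was also called with sample quality weights (0.00018), with the authors' 13 libraries (0.00047) and on the authors' gene CPM (0.027 with either pseudocount). The other analyses did not call it. The other 7 sodium channel genes were not called. Scn4a, the channel of skeletal muscle, averaged 20.9 CPM, and Scn2a1, Scn2b and Scn1a 3.41, 3.24 and 2.52 CPM.

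CLC genes were present as a group, with 7 members from 9.08 CPM (Clcn1) to 254 CPM (Clcn3), and none was called. Clcn3, an endosomal chloride-proton exchanger, read 220 to 255 CPM at 3M and 182 to 286 CPM at 24M. Clcn7, the exchanger of lysosomes, averaged 52 CPM, Clcn6, of late endosomes, 34.2 CPM, and Clcn2, a plasma membrane channel, 20.7 CPM. Clcn5, an exchanger of early endosomes, was the channel gene with the lowest log2 change at 24M. It read 11.3, 11.3, 9.19 and 13.5 CPM at 3M and 7.75, 7.86, 7.11 and 8.72 CPM at 24M, below every 3M library. The log2 change was -0.52 ± 0.152 (adjusted p = 0.0754), and it passed the threshold with DESeq2 and, with the length slope as a covariate, at a log2 change of -0.61 (adjusted p = 0.0058). Clcn5 also passed on the authors' gene CPM with either pseudocount, with the authors' 13 libraries and without 3M replicate 3. The other analyses did not call it.

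TRP genes were mainly Trpc1 and Trpm7. Trpc1, a canonical TRP subunit that forms channels with other members, read 174, 200, 160 and 148 CPM at 3M and 264, 233, 174 and 235 CPM at 24M (log2 change 0.41 ± 0.144, adjusted p = 0.166). At 18M all its libraries, 214 to 226 CPM, were above those of 3M. Trpm7, a magnesium-permeable channel fused to a kinase, read 131 to 176 CPM at 3M and 91.3 to 186 CPM at 24M, lowest again in 24M replicate 3. Trpm1, the transduction channel of ON bipolar cells, averaged 12.4 CPM, and Trpm3, a steroid-gated channel, 5.79 CPM. None of the 8 TRP genes was called at any age.

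Across the 89 genes, libraries at 24M lay wholly above those of 3M for 4 genes (Cacna2d2, Cacna1s, Scn8a and Trpc4) and wholly below for 2, Clcn5 among them. Of all genes tested, 4.55% lay wholly above and 5.22% wholly below in that comparison. At 18M 6 channel genes lay above and 2 below, against 5.77% and 6.82% of all genes, and at 12M 3 above and 0 below, against 2.27% and 2.46%. The counts of channel genes wholly above 3M were near the background at each age. Those wholly below, 0 at 12M, 2 at 18M and 2 at 24M, were under the background share at each age, and the difference was not tested.

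The spread of several channel genes within an age moved with the length slope of the libraries. The genes in this paragraph were chosen after their values were seen. In 24M replicate 3, with the lowest slope, Clcn3, Cacnb2 and Trpm7 were at 182, 332 and 91.3 CPM, against 257 to 286, 459 to 489 and 162 to 186 CPM in the other 24M libraries. In 12M replicate 4 the same genes read 215, 348 and 105 CPM, again the lowest of their age. At 18M, replicate 3, with the highest slope, read the highest, at 306, 519 and 207 CPM. Yet 18M replicate 2, whose slope of -0.044 was close to that of 12M replicate 4 (-0.047), read 255, 450 and 167 CPM. With a slope of 0.001, 18M replicate 4 read 263, 424 and 163 CPM. Kcnj14 and Clcn6 stood the other way: in 24M replicate 3, Kcnj14 read 630 CPM and Clcn6 49.3 CPM, against 384 to 469 and 32.6 to 35 CPM in the rest of that age. Mean transcript length was 6234 bases for Trpm7 and 2681 for Kcnj14, though Cacnb2, at 2783, went with Trpm7, and Clcn6, at 4005, with Kcnj14. At 3M, where slopes ran from -0.041 to -0.016, Trpm7 ran from 131 to 176 CPM in the order of the slopes. Cacna2d2 did not follow the slope within an age, with 22.5 to 24.1 CPM over the whole range of slopes at 24M. The part of the slope in each result was not tested, but fits with it as a covariate are given beside the genes whose call they change.

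**Figure D4:**
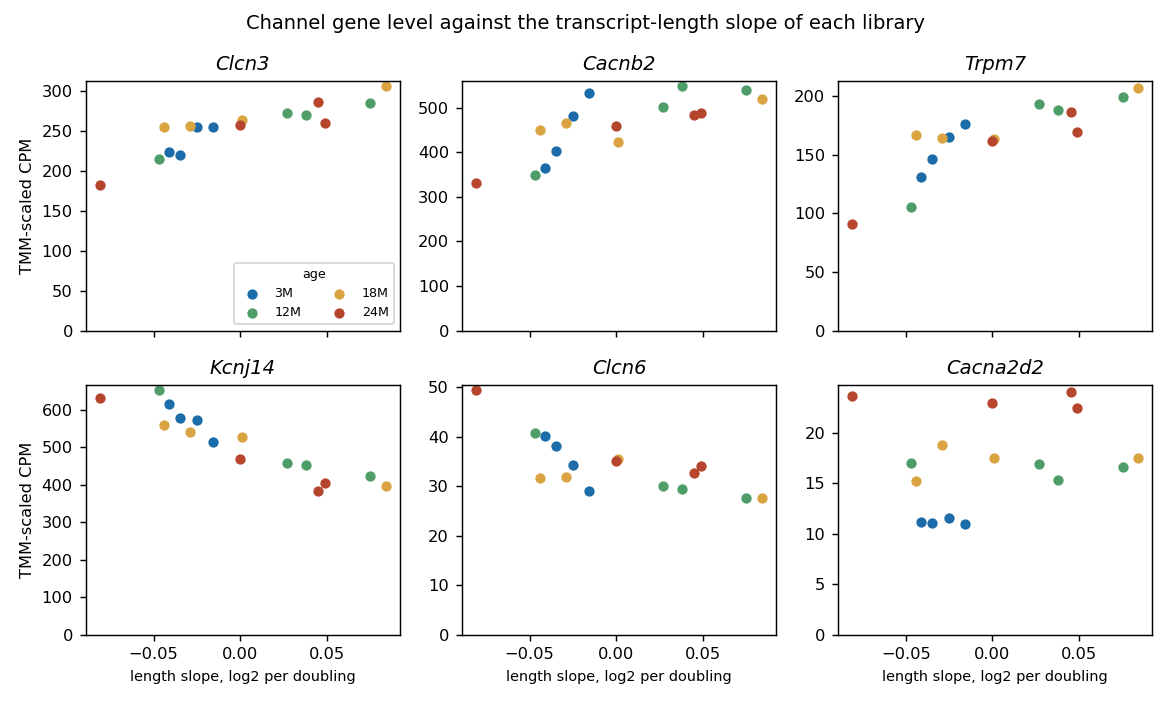
TMM-scaled CPM (vertical axes, from 0) of 6 channel genes in each of 16 libraries against the transcript-length slope of the library (horizontal axes, log2 per doubling of length), colored by age. Clcn3, Cacnb2 and Trpm7 are lowest in the library with the slope of -0.081, Kcnj14 and Clcn6 are high there, and the 3M and 24M libraries of Cacna2d2 lie apart.

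With the length slope as a covariate, 8 channel genes were called at 24M, against 4.4% of all genes higher and 4.5% lower. Of these, 6 were higher (the 4 above with Scn8a and Kcnn1) and 2 lower, Clcn5 among them. At 18M that fit called Cacna2d2, Hcn2 and Scn8a higher and 1 gene lower, against 2.53% of all genes higher and 1.89% lower. At 12M it called Cacna2d2 and Hcn2 higher, against 1.06% higher and 0.52% lower. For any difference among the ages it called 7 channel genes, against 5.63% of all genes. Cacna2d4, Cacnb2, Kcnj14, Kcnv2 and Cacna1f were not called in that fit at 24M. Without the 3 libraries that the authors' normalized table leaves out, 16 channel genes were called at 24M, 12 higher and 4 lower, which is a share near that of all genes (18.7%). Kcnj14 was then lower (-0.45, adjusted p = 0.0021) and Trpc1 higher (0.52, adjusted p = 0.0036).

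**Figure D5:**
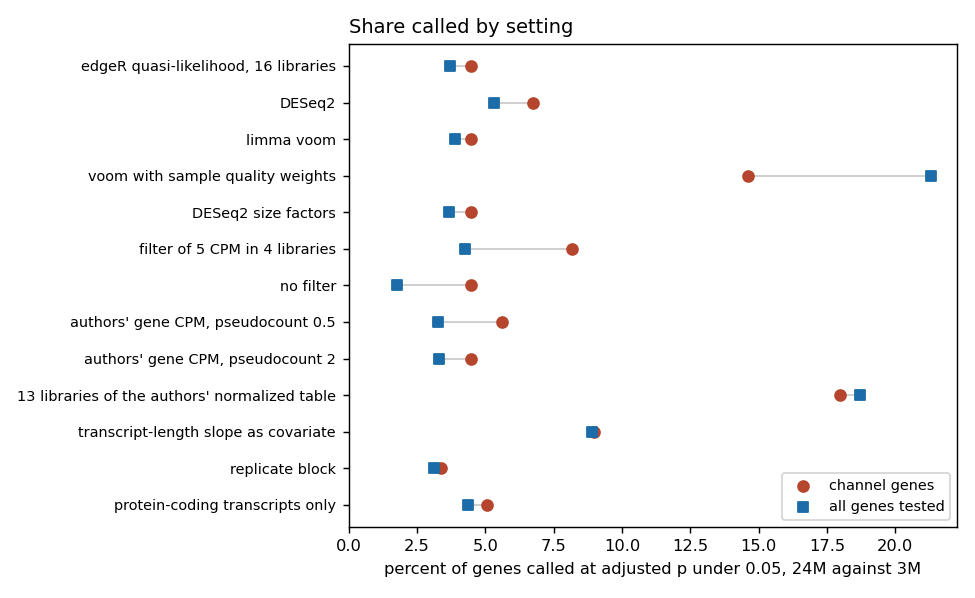
Percent of genes called at adjusted p under 0.05 at 24M against 3M (horizontal axis) for the channel genes tested (red circles) and for all genes tested (blue squares) under each analysis (vertical axis). In the edgeR fit the shares were 4.49% and 3.7%. The shares lay furthest apart with sample quality weights (14.6% of channel genes against 21.3%), with the 5 CPM filter (8.16% against 4.25%), with no filter (4.49% against 1.78%) and on the authors' gene CPM with a pseudocount of 0.5 (5.62% against 3.29%).

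The authors' deposited table of differences among ages, made for genes of a higher level, lists 48 of the 90 channel rows. An adjusted p under 0.05 was given there to 14 of them (29.2%), against 26.7% of its 11826 genes. Its channel genes under 0.05 include Kcnj14 (0.0036), Kcnh7 (0.0051), Kcnq3 (0.0045), Scn8a (0.004), Trpc1 (0.0076), Hcn2 (0.0091) and Kcnh6 (0.017). For Kcnj14, a leading rod channel gene, the adjusted p for any difference was 0.88 over the 16 libraries.

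Low channel genes varied with markers of other retinal cells. In 12M replicate 4, where Müller markers summed to 504 CPM and cone markers to 111 CPM, Trpm1 read 34.2 CPM against 7.7 to 11.2 CPM in the other 12M libraries. The rod marker sum was the highest of all 16 libraries there too, at 48100 CPM against 36300 to 37300 CPM in the rest of 12M. That library also had a low length slope, -0.047. Kcnma1, Trpm3 and Cacna1h were also highest of all 16 libraries there, at 11.5, 12.5 and 7.31 CPM. Of the called genes, Hcn2 was highest of all 16 libraries there too, at 18.9 CPM. Cacna1s was highest of 12M there, at 9.19 CPM against 5.23 to 6.67 CPM. Kcnh6 was lowest of 12M there, at 22.2 CPM, and Cacna2d2, at 17 CPM, lay close to the others (15.3 to 16.9 CPM). In 3M replicate 1, with a Müller sum of 291 CPM against 146 to 200 CPM in the rest of 3M, Trpm1, Kcnma1 and Trpm3 read 17.1, 9.59 and 8.55 CPM, the highest of that age. The rod marker sum there was the lowest of 3M, at 41600 CPM against 43300 to 46300 CPM. Markers of ON bipolar cells summed to 269 CPM in 3M replicate 1, against 235 to 245 CPM in the rest of 3M. In 12M replicate 4 their sum, 256 CPM, was not high (239 to 257 CPM in the rest of 12M). Without Prkca, the largest of them, they summed to 67.9 CPM in 12M replicate 4 and 52.3 CPM in 3M replicate 1. The rest of those ages held 35.7 to 46.8 and 30.9 to 40.5 CPM. Prkca itself ran from 170 to 219 CPM. It was lowest of its age in 12M replicate 4, at 188 CPM against 202 to 219 CPM. Grm6, the glutamate receptor of ON bipolar cells, read 7.06 CPM in 12M replicate 4 against 2.1 to 2.96 CPM in the rest of 12M, and the OFF bipolar sum was highest in the same 2 libraries (6.5 and 5.09 CPM). These genes were chosen after their values were seen, and the part of other cells in them was not tested. The 4 called genes were not highest of 3M in 3M replicate 1. Beside them, Müller sums were 146 to 291 CPM at 3M and 186 to 311 CPM at 24M. The median log2 change of the 13 Müller markers at 24M, 0.417, was above that of the channel genes, 0.118, though none was called, and rod markers moved the other way (-0.253).

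Other genes of rod excitability were followed as a list of 50, of which 44 were tested: the light-gated channel and its exchanger, pumps, calcium stores, synaptic scaffolds, chloride transporters and channels outside the name rule. At 24M 1 of the 44 was higher and 2 were lower, beside 2.17% of all genes called higher and 1.53% lower. The median log2 change was 0.037. This list was chosen with earlier results of these data known. Itpr2, a calcium release channel of the endoplasmic reticulum, rose from 48.5 ± 3.71 to 82.2 ± 7.49 CPM (log2 change 0.76, adjusted p = 0.000241). Ano2, the calcium-activated chloride channel of the rod terminal, fell from 229 ± 9.44 to 175 ± 9.78 CPM (-0.39, adjusted p = 0.00434). Ttyh2, a membrane protein of the tweety family, fell from 27.3 ± 3.73 to 12.6 ± 2.9 CPM (-1.12, adjusted p = 0.0015). Not called were Cnga1 (1060 ± 258 and 844 ± 291 CPM) and Cngb1 (1330 ± 118 and 1240 ± 97.5 CPM) of the light-gated channel, its exchanger Slc24a1, the sodium pump gene Atp1b2, and Cabp4, the calcium sensor of Cav1.4. The 6 genes under the limit were Ano1, Best2, Lrrc52, Lrrc26, Tpcn2 and Panx1.

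Not all counted channel message was coding. Transcripts annotated as protein-coding held a median of 92% of a channel gene's counts, against 92.8% for protein-coding genes in general. In 18 of 89 channel genes (20.2%, against 17.3%) they held under 50%. Among those were Cacna1e (2.92%), Clcn2 (1.37%), Kcnn2 (2.94%), Clcn3 (35.9%) and Cacnb2 (46.6%), whose counts fell mostly on retained-intron or other noncoding forms. Cacna1f (50.1%) and Cacna2d4 (58.3%) were also split: for Cacna1f, the retained-intron Cacna1f-206 held 27.7%, and for Cacna2d4 the retained-intron Cacna2d4-209 held 28%. Kcnv2 and Kcnj14 each have a single annotated form. With counts of coding transcripts only, 79 channel genes were tested and the same 4 were called at 24M. Lrtm2, at 61.7 CPM, lies on the opposite strand of Cacna2d4 over 15634 bases, where strand could not be settled.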

How the data were processed

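The authors deposited estimated counts per transcript for 16 libraries of sorted rods, and a table of gene CPM, a signal whose libraries sum to 936588 to 1055611. Normalized CPM of 13 libraries stand in a further deposited table. Their table of comparisons gives log2 differences, an F statistic (a score) and p-values, per the file headers. Tools listed in the submitters' processing notes, without roles, are limma 3.32.2, edgeR 3.13.9 and kallisto 0.42.5, with the build GRCm38.p4. The sources used here do not state whether counting used strand. Per the labels' protocols, cells were over 98% pure on resorting, and each library took 4 ng of RNA through a stranded kit and 13 PCR cycles.

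From the counts, 111896 of 113468 transcripts were matched to GENCODE genes of GRCm38, summed and rounded. Unmatched transcripts held 0.73% to 1.08% of a library. Coordinates are those of GENCODE. Genes with a mean of at least 1 in the authors' gene CPM (16939) were tested in R 4.3.3 by edgeR 4.0.16, fitting 1 mean per age to the 16 libraries after TMM scaling. The fit was tested on simulated data with the same dispersion for every gene and no length slope. That setting is simpler than these libraries, so it does not show how the fit performs on them. Estimates for genes that overlap on opposite strands, and for close paralogs, may be split. Named genes are the called ones, a fixed set of retinal channels, the leading gene of each role class, and those next to the level limit, and genes chosen after their values were seen are marked as such or stand in a count. Channel genes and lists were chosen with earlier results of these data known. Same-numbered libraries did not pair: 10 of 24 pairs had deviations correlated over 0.1. No 2 libraries of an age agreed within sampling noise (lowest chi-square per degree of freedom 6.98). Alternatives were DESeq2 1.42.0, limma 3.58.1 voom with and without quality weights, other scalings and filters, the authors' gene CPM on a log2 scale with pseudocounts of 0.5 and 2, the 13 libraries, the length slope, a replicate block and each library left out. Counts of protein-coding transcripts only were added after seeing the data. Protein sequences were not used here, and some genes that the rule names are not reported here.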

Additional observations from a re-analysis of the deposited data

Results flagged for a closer look

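Groups of 4 libraries were checked at each age for the named channel genes and the 2 calcium channel ratios, 148 in all. In 16 of them, all of gene levels, 1 library stood far from the other 3, where chance flags about 1 in 20 groups. The groups share libraries, so their flags are not independent. Of the 16, 10 came from 12M replicate 4, 18M replicate 3 or 24M replicate 3, which are 18.8% of the libraries.

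In 12M replicate 4, Kcnj14 read 652 CPM (others 422 to 457), Clcn7 59.3 CPM (46 to 48), Trpm1 34.2 CPM (7.7 to 11.2) and Kcnk1 4.11 CPM (2.14 to 2.35). Trpm7 was low there, at 105 CPM (188 to 199). In 18M replicate 3, Clcn3 read 306 CPM (255 to 263) and Trpm7 207 CPM (163 to 167). In 24M replicate 3, Cacna2d4 read 1040 CPM (916 to 935), Clcn6 49.3 CPM (32.6 to 35) and Kcnj13 2.6 CPM (5.21 to 5.62).

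Of the called genes, Kcnh6 had such a library: 24M replicate 1 read 17.5 CPM and the others 34.6 to 37.1 CPM. The rest were Cacna2d4 in 18M replicate 2 at 854 CPM (911 to 922), Kcnj10 in 18M replicate 4 at 6.87 CPM (5.8 to 5.95), Cacna1d in 3M replicate 1 at 3.86 CPM (2.68 to 2.73), Scn2a1 in 18M replicate 2 at 5.1 CPM (3.61 to 3.82) and Scn1a in 24M replicate 2 at 5.35 CPM (1.9 to 2.23).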

How the results depend on the processing

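Of the 4 genes called at 24M, Cacna2d2 alone was called in every analysis. The number of channel genes called at 24M was 13 with sample quality weights, 16 with the 13 libraries and 8 with the length slope, against 4. At 18M it was 2 with DESeq2, 7 with quality weights, 4 with 13 libraries and 4 with the slope, against 1. At 12M it was 3, 25, 19 and 2 in that order, against 1, and for any difference 5, 21, 15 and 7, against 1. Shares of all genes moved with these counts: 21.3%, 18.7% and 8.9% at 24M, and 36.9% at 12M with quality weights. Leaving out 1 library gave 1 to 5 calls at 24M, and 1 to 2 at 12M, at 18M and for any difference. At 24M, dropping 3M replicate 1 left 1 call, and dropping replicate 2 of 3M or of 24M left 2. The counts of 2 came without 3M replicate 4 in each of the other comparisons, without 12M replicate 4 at 12M and for any difference, and without 24M replicate 1 for any difference. With the replicate block 3 were called at 24M, losing Cacna1s (adjusted p = 0.061), and 4 of 16 libraries correlated best with their own number.

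Among the named channel genes, log2 changes at 24M that changed sign belonged to genes not called at 16 libraries. Sign changes of other channel genes are not listed. With 13 libraries they were 0.24 for Scn9a, 0.16 for Trpm7, 0 for Clcn2, 0.1 for Cacnb2, -0.06 for Clcn6 and -0.11 for Kcnab2. With quality weights they were 0.27 for Scn9a, 0.15 for Trpm7, 0.13 for Cacnb2, -0.06 for Clcn6 and -0.19 for Kcnab2. With the slope they were -0.05 for Kcnn2, -0.01 for Kcnn3, 0 for Kcnk6, -0.14 for Kcnb2, -0.08 for Clcn3, 0 for Kcnh2, 0.03 for Clcn7 and 0 for Cacna1c. On the authors' gene CPM, with pseudocounts of 0.5 and 2, they were 0.01 and 0.01 for Cacnb2 and -0.22 and -0.16 for Cacna1c. The 5 CPM filter gave 0 for Cacnb2 and coding transcripts gave 0.08 for Clcn7. With 1 library left out they ran from -0.1 to 0.1 for Cacnb2, -0.03 to 0.17 for Clcn3, -0.13 to 0.16 for Trpm7, -0.11 to 0.15 for Kcnab2, -0.14 to 0.05 for Clcn7. The ranges were -0.06 to 0.16 for Clcn6, -0.01 to 0.16 for Clcn2, -0.11 to 0.55 for Trpm1, -0.01 to 0.57 for Kcnma1, -0.09 to 0.29 for Kcnb2. Those of the rest were -0.01 to 0.43 for Cacna1d, -0.05 to 0.38 for Scn2a1, -0.03 to 0.29 for Kcnk1, -0.25 to 0.24 for Scn9a. The cause was not tested. Depth limits what could be seen for the 42 channel genes with a mean under 5 CPM in the authors' gene table.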
